A study of Mus musculus with 8 samples.

Results

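The comparison described here is the loss of OBF-1 in pre-BII cells: 2 arrays of OBF-1-/- mice against 2 arrays of wild type (WT) mice. The MOE430A array carries 22626 probe sets besides the controls, and the 9480 with a mean intensity of 100 or more in WT or in OBF-1-/- cells were taken as members. With the brightest probe set for each gene they stood for 6064 of the 12393 genes on the array that could be named. All mice were of the strain given as Bl6 and were 7 weeks old. WT mice carried both genes, OBF-1-/- mice lacked OBF-1, and 2 further genotypes, Aiolos and Aiolos/OBF-1, lacked Aiolos alone or together with OBF-1 and entered the same statistical model with 2 arrays each. The paper describes B220+ CD25+ cells sorted from pooled marrow of 8 mice, with 2 independent pools for each genotype, and this description was followed. It does not say which pool each array came from. The deposited labels mention no sort: they give bone marrow as the source, and for a mutant they name 1 deletion mouse.

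The Pou2af1 gene encodes OBF-1, a coactivator that binds no DNA by itself but joins the POU domain factors Oct-1 and Oct-2 on the octamer, a sequence found in immunoglobulin promoters and enhancers. Pre-BII cells have completed a heavy chain, have displayed it with the surrogate light chain as the pre-B cell receptor, and are rearranging the light chain loci. The factor is best known for the germinal centres that fail to form without it, and it also acts earlier, in the bone marrow.

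The arrays of the 4 genotypes had median intensities of 66.8 to 69.4, and the correlation over probe sets was 0.9961 to 0.9965 within a genotype, against 0.9923 to 0.9934 for a WT with an OBF-1-/- array. WT and OBF-1-/- arrays were washed on the same fluidics station, on modules 1 and 2 for WT and 3 and 4 for OBF-1-/-, so that module and genotype cannot be told apart. The label of the cells was checked on markers. Cd79a, a signalling chain of the B cell receptor, read 7927 and 7944 in WT and 8353 and 9365 in OBF-1-/- cells, and Rag1, the recombinase of light chain rearrangement, read 3181 and 2901 against 3237 and 2847. Il2ra, which encodes the CD25 used for the sort, was present on every array, and Kit, a marker of earlier stages, lay between 38.7 and 46.9 on the 4 arrays. Markers of granulocytes were also bright, with S100a8 between 4574 and 6211, and are treated below. Ighd was not analysed here.

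Loss of OBF-1 lowered more genes strongly than it raised. At an adjusted p under 0.05 from limma, 120 member genes were lower (1.98% of the 6064) and 113 were higher (1.86%). These shares are the background for the counts of every group below. Only 96 of the lower and 84 of the higher genes reached the minimum of 100 in both genotypes. The rest were members only through the genotype in which they were high. Among them were Atm, Igkv6-14, Rasgrp1, Zfpm1, Fmn2, Camk2d, Gadd45b, H2-DMa, Bcar3, Rev1, Gh and Prm1 of the lower genes. Car1, Upb1 and C1qa were among them of the higher genes. Of the lower genes 40 had fallen at least 2-fold and 15 at least 3-fold, whereas 10 of the higher genes had risen at least 2-fold and none 3-fold. The median log2 fold change was -0.74 for the lower and 0.58 for the higher genes, and -0.0036 over all member genes. In each of the 233 called genes the OBF-1-/- arrays did not overlap with the WT arrays, which was also true of 50.5% of all member genes. A further probe set of a called gene reached the intensity minimum 74 times, and 71 of these had the same sign, 50 were called in the same direction and none was called in the opposite one. When each of the 8 arrays was left out in turn, 68 genes stayed called in every fit, 47 lower and 21 higher, and 41 of these had changed at least 2-fold. Of the others 73 lower and 92 higher genes lost their call in at least 1 of these fits, and beside such a gene the highest adjusted p reached is given below with the array left out. No called gene changed sign in any of them, which was given in advance, as the arrays of the 2 genotypes did not overlap in these genes. The counts of lower and higher genes fell to 53 and 40 when WT replicate 1 was missing and to 76 and 29 for WT replicate 2. They fell to 74 and 66 when OBF-1 replicate 1 was missing and to 65 and 40 for OBF-1 replicate 2.

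**Figure D1:**
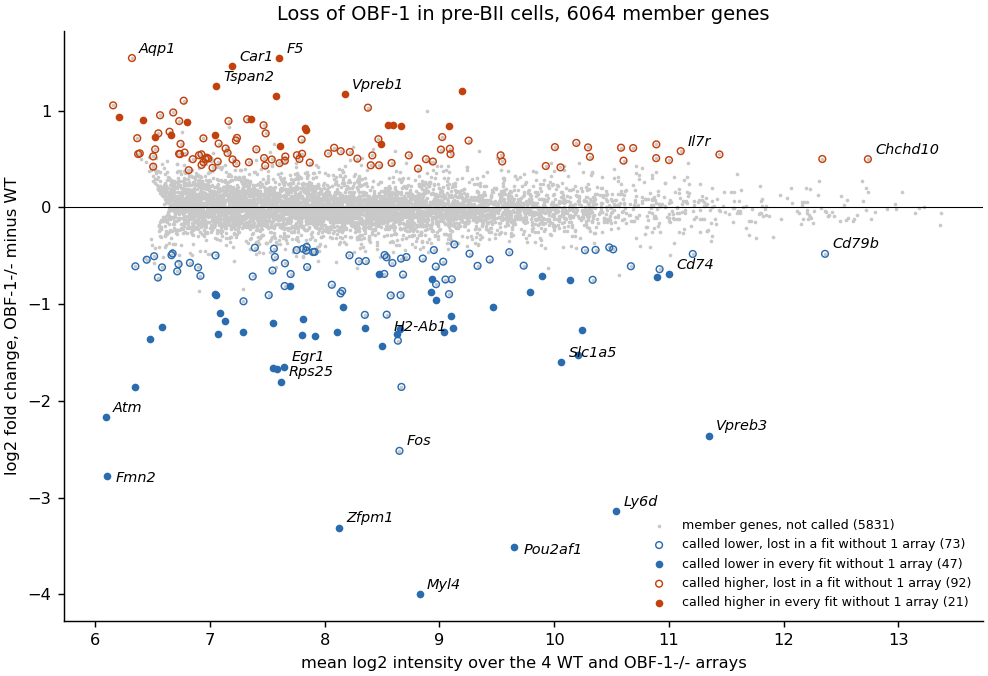
Each point is a member gene, with the mean log2 intensity over the 4 arrays on the x axis and the log2 fold change, OBF-1-/- minus WT, on the y axis. Filled points are the 47 lower and 21 higher genes called in every fit without 1 array and open points the other called genes; Pou2af1 lies at -3.51, with Myl4 below it, and F5, the largest rise, at 1.54.

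The deletion itself was visible in the arrays. Pou2af1 read 2761 and 2678 in WT and 241 and 236 in OBF-1-/- cells, a fall of 11.4-fold (log2 fold change -3.51, standard error 0.17, adjusted p = 4.56e-07 from limma). The steepest fall was that of the myosin light chain gene Myl4, followed after Pou2af1 by the GATA cofactor gene Zfpm1 and by Ly6d, a surface protein of lymphoid progenitors. Myl4 read 1745 and 1886 in WT and 115 and 113 in OBF-1-/- cells, and the log2 fold change was -3.31 for Zfpm1, -3.14 for Ly6d and -2.78 for the formin gene Fmn2. In all of these genes the arrays of the 2 genotypes lay far apart. Of 6 member genes that the paper names as dependent on OBF-1, 2 were called lower, Myl4 and Ms4a1, and the others were not called. The highest log2 fold change among the 6 was 0.421.

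In the list of pre-B cell receptor chains, which also holds the related gene Vpreb3, calls went in both directions. Vpreb3, a protein related to the surrogate light chain that binds newly made immunoglobulin chains in the endoplasmic reticulum, read 5997 and 5822 in WT and 1108 and 1197 in OBF-1-/- cells. It fell by 2.36 on the log2 scale (standard error 0.090, adjusted p = 3.76e-08 from limma), a 5.13-fold change. The surrogate light chain genes Vpreb1 and Igll1, known from earlier stages, were higher. Vpreb1 rose from 195 and 191 to 462 and 407 (log2 fold change 1.17, adjusted p = 3.77e-05), and Igll1 from 327 and 281 to 538 and 546 (log2 fold change 0.84, adjusted p = 0.00118). The Igll1 probe set is of a kind that can bind several transcripts, and a dimmer one, at 35.2 in WT, had a log2 fold change of -0.026. Cd79b, the second signalling chain of the receptor, read 6215 and 6211 in WT and 4470 and 4437 in OBF-1-/- cells, a log2 fold change of -0.48 with an adjusted p of 0.0175 that came to 0.12 without WT replicate 1 and was also lost without WT replicate 2 or either OBF-1-/- array. The mu heavy chain gene Ighm (-0.19) and Cd79a (0.16) were not called. Of the 6 measured genes of the list 2 were lower, Vpreb3 and Cd79b, and 2 higher. Vpreb3 is not among the surrogate light chain genes that the paper names.

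Immunoglobulin genes beyond these were lower or did not pass. The pattern list held 11 member genes, of which 3 were lower and none higher, and its median log2 fold change was -0.19; one of the 11, Ighmbp2, is a helicase and no immunoglobulin. The probe set named Igkv6-14, a kappa variable segment, read 159 and 151 in WT and 50.6 and 36.2 in OBF-1-/- cells (log2 fold change -1.86, adjusted p = 1.84e-05 from limma). Igha, the alpha constant region, read 456 and 257 against 96.4 and 121, with an adjusted p of 0.00288. The brighter segment Igkv8-30 read 2786 and 2806 against 2072 and 1935, with an adjusted p of 0.0221 that rose to 0.168 without OBF-1 replicate 2 and was lost without any of the 4 arrays. The other probe sets of the list were not called, among them Igkv9-120 with a log2 fold change of 0.39. Probe sets of variable segments and of constant regions can bind several family members, so these values may not be specific to the named segment.

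**Figure D2:**
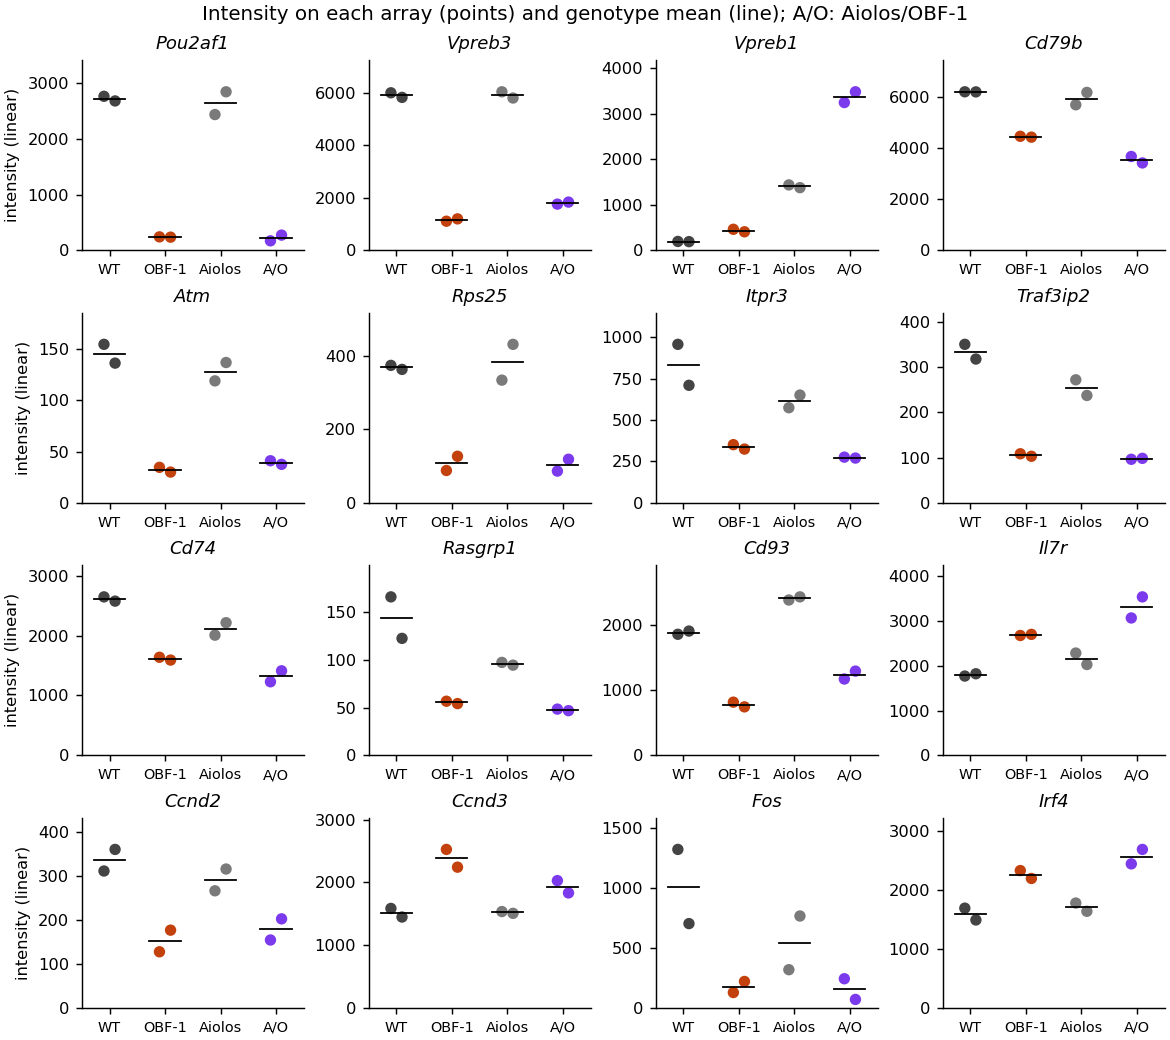
Linear intensity of 16 genes on each of the 8 arrays (points) with the mean of each genotype (line); A/O is Aiolos/OBF-1. In Vpreb3, Cd79b, Itpr3 and Cd74 both arrays without OBF-1 lie below both arrays with it in either Aiolos background, and in Vpreb1, Il7r and Irf4 above them, while the 2 WT arrays of Fos read 1319 and 702.

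As the octamer is the sequence on which OBF-1 works, the promoters of the called genes were searched for it. The window ran from 250 bases before to 50 bases after each start in the RefSeq table (build GRCm38.p6), and the letters ATGCAAAT, or ATTTGCAT for the other strand, had to match in full. Of the 120 lower genes 92 had a promoter in the table, and 7 of these held an octamer (7.61%). Among the higher genes it was 1 of 87 (1.15%), among the other member genes 67 of 4838 (1.38%), and among all genes with a promoter listed 532 of 27025 (1.97%). Counted for each promoter rather than each gene, 1.74% of all 32851 promoters held one. Of the lower genes that were also called lower without Aiolos, 6 of 65 held it (9.23%). The shorter form ATGCAAA, which lies within the octamer, was found in 10.9% of the lower, 4.6% of the higher and 3.64% of the other member genes. These shares describe a window of 300 bases, were not tested, and say nothing of binding. A gene without an octamer here may hold one further away. For λ5 (Igll1), a higher gene, the paper reports putative octamer sites upstream of this window. It found OBF-1 enriched at them by chromatin immunoprecipitation in a B lymphoma line. The 7 lower genes were Vpreb3, Itpr3, Gadd45g, Cables2, Zfp428, Hspa2 and Egln2, and the higher one was Chchd10. Outside Vpreb3 and Itpr3 these calls did not hold in every fit, with adjusted p of up to 0.117 for Zfp428 and 0.0905 for Gadd45g without WT replicate 1, 0.243 for Hspa2 without OBF-1 replicate 2 and 0.13 for Egln2 without WT replicate 2. The octamer of Vpreb3 began 45 bases before the start and that of Itpr3 27 bases before it, both on the opposite strand. Cables2, an adaptor for cyclin-dependent kinases, held 3 octamers, which began 206, 157 and 59 bases before its start.

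The promoters of the gene with the largest fall of the 7, of a calcium channel gene, of the gene with 3 octamers, and of the higher gene that lies beside Vpreb3 are shown 5′ to 3′ on the strand of the gene, with each octamer in capitals. The first lies at chr10:75948050-75948349 on the plus strand, the second at chr17:27057054-27057353 on the plus strand, the third at chr2:180273416-180273715 on the minus strand and the fourth at chr10:75932880-75933179 on the plus strand (GRCm38.p6).
Vpreb3: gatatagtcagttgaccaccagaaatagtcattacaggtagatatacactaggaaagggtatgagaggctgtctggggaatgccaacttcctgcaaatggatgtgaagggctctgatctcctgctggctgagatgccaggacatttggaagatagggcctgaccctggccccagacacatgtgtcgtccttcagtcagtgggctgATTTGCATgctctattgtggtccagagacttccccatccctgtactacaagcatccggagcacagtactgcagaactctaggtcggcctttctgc
Itpr3: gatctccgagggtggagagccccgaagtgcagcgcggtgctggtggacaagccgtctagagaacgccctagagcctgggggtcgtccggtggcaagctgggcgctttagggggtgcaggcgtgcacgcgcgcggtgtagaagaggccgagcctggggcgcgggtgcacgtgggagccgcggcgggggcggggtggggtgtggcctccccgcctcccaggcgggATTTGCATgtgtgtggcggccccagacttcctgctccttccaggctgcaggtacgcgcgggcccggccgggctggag
Cables2: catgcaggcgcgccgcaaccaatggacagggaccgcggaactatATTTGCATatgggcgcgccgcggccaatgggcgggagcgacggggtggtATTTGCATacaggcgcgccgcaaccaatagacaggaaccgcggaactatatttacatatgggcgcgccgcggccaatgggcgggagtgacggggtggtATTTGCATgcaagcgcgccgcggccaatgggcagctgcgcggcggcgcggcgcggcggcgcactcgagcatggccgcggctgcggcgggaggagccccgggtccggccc
Chchd10: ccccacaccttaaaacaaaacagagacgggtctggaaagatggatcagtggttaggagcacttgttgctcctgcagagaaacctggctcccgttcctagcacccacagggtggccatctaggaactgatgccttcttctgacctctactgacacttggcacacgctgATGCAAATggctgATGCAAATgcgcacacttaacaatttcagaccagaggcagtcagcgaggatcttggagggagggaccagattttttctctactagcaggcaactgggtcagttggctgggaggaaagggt
Chchd10, a small mitochondrial protein, read 5926 and 5549 in WT and 8091 and 8113 in OBF-1-/- cells, a log2 fold change of 0.50 with an adjusted p of 0.0146 from limma that rose to 0.115 without WT replicate 2 and was lost without any of the 4 arrays. A second Chchd10 probe set had a log2 fold change of 0.27 and was not called. The gene lies between Mmp11 and Vpreb3 among the member genes in the gene order of the table, and its promoter holds 2 octamers. Mmp11, a secreted protease of the stromelysin group, rose from 136 and 121 to 278 and 292 (log2 fold change 1.15, adjusted p = 7.71e-05). So of these 3 neighbours 1 was lower and 2 were higher. Cables2 read 419 and 352 in WT and 242 and 184 in OBF-1-/- cells, with an adjusted p of 0.00507 that came to 0.0741 without WT replicate 1 and was also lost without OBF-1 replicate 2.

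A group with calls in 1 direction was antigen presentation by MHC class II, the molecules with which B cells show peptides to helper T cells. Of 8 member genes 5 were lower and none higher, and the median log2 fold change was -0.58. Cd74, the invariant chain that guides class II molecules to endosomes, read 2646 and 2575 in WT and 1638 and 1591 in OBF-1-/- cells (log2 fold change -0.69, adjusted p = 0.00314 from limma). H2-Ab1, the beta chain of I-A, read 497 and 602 against 239 and 269, and H2-Aa, its alpha chain, 650 and 844 against 385 and 410. H2-DMa, the alpha chain of the molecule that loads peptides, read 151 and 158 against 92.5 and 96.7, and H2-Oa, part of the molecule that restrains loading, 261 and 306 against 202 and 209. Of these genes H2-DMa was a member only through its WT mean. The H2-Ab1 and H2-Aa probe sets are of kinds that can bind several transcripts.

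The calls of these genes were not equally firm. That of Cd74 held in every fit, while H2-Ab1 was lost without WT replicate 2 (adjusted p = 0.0517 from limma) and H2-Aa without WT replicate 2 (0.193) or either OBF-1-/- array. H2-DMa was lost without WT replicate 2 (0.07), WT replicate 1 or OBF-1 replicate 1, and H2-Oa without any of the 4 arrays or either Aiolos array (up to 0.236). The other probe sets of H2-Ab1 and H2-Aa were called lower too, but most of them can also bind several transcripts. Not called were H2-Eb1 with a log2 fold change of -0.35, the cathepsin gene Ctss with -0.26 and H2-Ea with 0.050. Outside the list, Rfx5, a factor that binds class II promoters, and Ifi30, a thiol reductase of antigen processing, were also lower, by 0.53 and 0.75 on the log2 scale. Their calls did not hold without WT replicate 2 (0.103) for Rfx5 or WT replicate 1 (0.0974) for Ifi30, among others. The summed intensity of the 10 list genes on the array was 5695 and 5957 in WT and 3811 and 3873 in OBF-1-/- cells. Over the 16 member genes that mark immature and mature B cells, 3 were lower (Ms4a1, Cd180 and Tnfrsf13c) and none higher. The intensities of the 22 list genes on the array summed to 20630 and 19870 in WT and 19870 and 17830 in OBF-1-/- cells. Ms4a1, the gene of CD20, held in every fit, whereas Cd180, a receptor of the Toll-like type, came to 0.193 without WT replicate 1 and Tnfrsf13c, the receptor for the survival factor BAFF, to 0.217 without WT replicate 1. Whether a different share of more mature cells entered the pools was not tested, and fewer cells of a type and less RNA for each cell cannot be told apart in bulk samples.

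**Figure D3:**
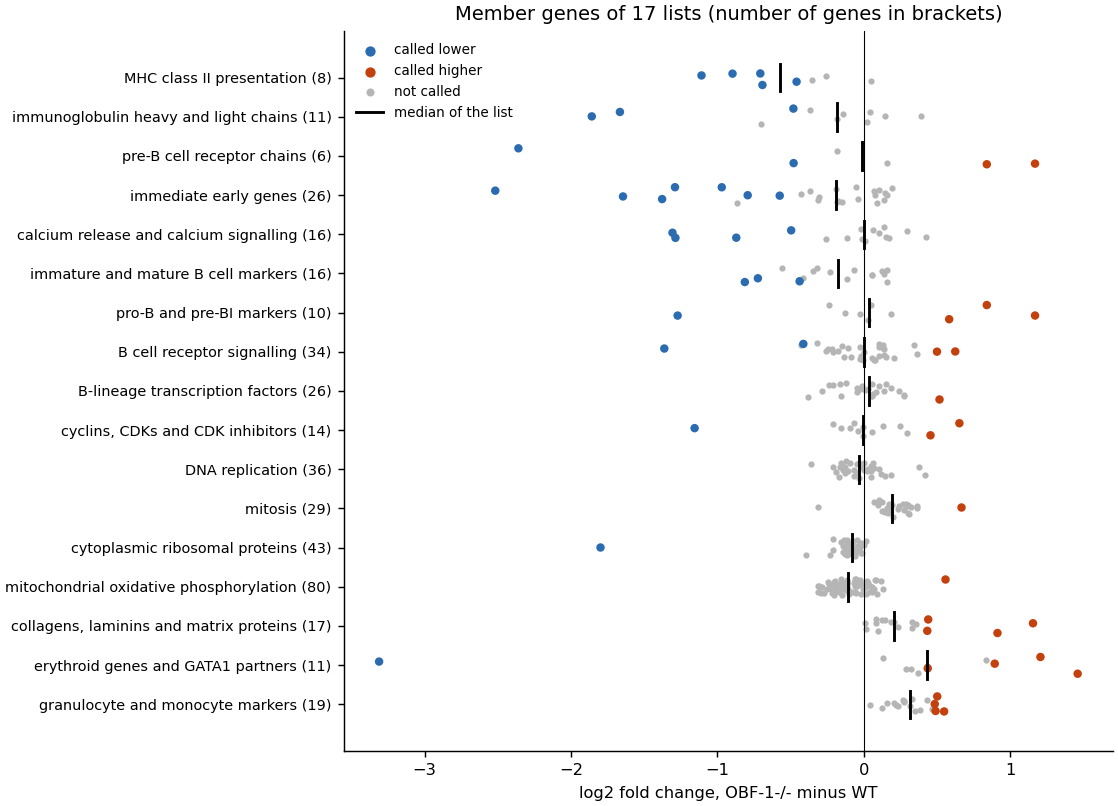
Each point is the log2 fold change (OBF-1-/- minus WT) of a member gene of a list, blue where called lower, orange where called higher and grey where not called, with the list's median as a black line. MHC class II has 5 of 8 genes in blue, while mitosis, DNA replication and oxidative phosphorylation have 1, 0 and 1 called genes.

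Immediate early genes were lower in part. Of 26 such genes, which cells switch on within a short time of a stimulus, 7 were lower and none higher, and the median log2 fold change was -0.19. Over all member genes 1.98% were called lower and 1.86% higher. Egr1, a zinc finger factor induced by receptor signals, fell by 1.65 on the log2 scale. Gadd45b, a stress-induced activator of the MAP kinase pathway, read 235 and 254 in WT and 101 and 99.1 in OBF-1-/- cells (log2 fold change -1.29, adjusted p = 4.27e-05 from limma). These 2 genes held in every fit. Fos and Jun, the partners in the factor AP-1, varied much more between the 2 arrays of a genotype: Fos read 1319 and 702 in WT and 128 and 220 in OBF-1-/- cells, and Jun 831 and 496 against 202 and 303. Their log2 fold changes were -2.52 and -1.38 with adjusted p of 0.0283 and 0.038, and without WT replicate 1 the adjusted p was 0.26 for Fos and 0.314 for Jun. Fos was lost without any of the 4 arrays, and Jun without WT replicate 1, OBF-1 replicate 1 or 2, or either Aiolos/OBF-1 array. Gadd45g (0.0905 without WT replicate 1), the MAP kinase phosphatase gene Dusp6 (0.143 without WT replicate 1) and Ier5 (0.33 without WT replicate 1) were called in the fit of all arrays but not in every other. The remaining 19 genes were not called, and Nr4a1, Egr3 and Nfkbia had log2 fold changes of 0.15, 0.14 and 0.19.

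Of 16 genes of calcium handling 4 were called lower and none higher, against 1.98% and 1.86% of all member genes. The list as a whole did not move: 8 of the 16 had a negative log2 fold change, and the median was -0.0029. Itpr3, the type 3 receptor that releases calcium from the endoplasmic reticulum, read 957 and 710 in WT and 351 and 325 in OBF-1-/- cells (log2 fold change -1.29, adjusted p = 2.02e-04 from limma). Atp2a3, the pump that returns calcium to this store, read 1171 and 1219 against 616 and 692 (log2 fold change -0.87, adjusted p = 5.84e-04). Camk2d, a calcium-dependent kinase, fell from 239 and 187 to 91.7 and 79.5, a log2 fold change of -1.31, and was a member only through its WT mean. These 3 calls held in every fit, and that of Camk1d did not (0.339 without WT replicate 1). Itpr2, another release channel, had a log2 fold change of 0.29, and Orai1 and Stim1, the channel and sensor of calcium entry, had 0.010 and 0.15, none of them called.

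Of 34 genes of B cell receptor signalling, 2 were lower and 2 higher, and the median log2 fold change was -0.0020. The shares over all member genes were 1.98% lower and 1.86% higher. Rasgrp1, which links diacylglycerol to Ras, fell from 166 and 123 to 56.8 and 54.3, a log2 fold change of -1.36 (adjusted p = 9.07e-05 from limma). A pair of dimmer Rasgrp1 probe sets was not called. Fcgr2b, the inhibitory receptor for IgG, read 792 and 867 in WT and 1287 and 1267 in OBF-1-/- cells, with an adjusted p of 0.00347 that came to 0.0533 without WT replicate 1. Dok3 (lower, 0.259 without WT replicate 1) and Gab1 (higher, 0.23 without WT replicate 1) are adaptors. Of 15 NF-kB subunits, inhibitors and TRAFs 2 were lower, Traf5 and Rel, and none higher, with a median of -0.048. Signalling adaptors, kinases and GTPase regulators outside the lists, grouped after their values were seen, held 10 lower genes and 4 higher ones, Lcp2 (0.232 without OBF-1 replicate 2), Sting1 (0.184 without OBF-1 replicate 1), Spata13 (0.143 without OBF-1 replicate 1) and Srgap3. Traf3ip2, the adaptor also called Act1 of IL-17 receptor signalling, read 350 and 318 in WT and 109 and 103 in OBF-1-/- cells (log2 fold change -1.66, adjusted p = 2.69e-06). Traf5, an adaptor of TNF receptors, read 471 and 397 against 192 and 162 (log2 fold change -1.29). Swap70, an actin-binding protein of B cells, read 560 and 451 against 225 and 198 (log2 fold change -1.25), and Bcar3, a Cas-binding adaptor, 150 and 144 against 64.4 and 60.1 (log2 fold change -1.24). Trib2, a pseudokinase, read 729 and 823 against 358 and 128, and its adjusted p of 0.0125 came to 0.107 without WT replicate 2. Rel, the c-Rel subunit of NF-kB, was lower by 0.51 on the log2 scale (0.2 without WT replicate 1).

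Receptors that mark the developmental stage did not move one way. Cd93, a receptor of early and immature B cells, read 1855 and 1904 in WT and 815 and 743 in OBF-1-/- cells (log2 fold change -1.27, adjusted p = 1.61e-05 from limma). The neighbour of Cd93 in the gene order, Thbd, the gene of thrombomodulin, read 300 and 269 against 125 and 123 (log2 fold change -1.20). Il7r, the alpha chain of the interleukin 7 receptor, was higher, with 1773 and 1824 in WT and 2679 and 2704 in OBF-1-/- cells, as was Il2ra, with 445 and 396 against 676 and 598. The adjusted p of Il7r was 0.0115 and came to 0.0992 without WT replicate 1, with the call lost without any of the 4 arrays, and that of Il2ra was 0.0115 and came to 0.112 without WT replicate 2. Il2ra encodes the antigen of the sort itself. A second Il2ra probe set, with means of 139.5 in WT and 170.7 in OBF-1-/- cells, had a log2 fold change of 0.28 and was not called. Il7r and Il2ra were the called genes among 18 of the interleukin 7 and interleukin 2 receptors, JAK, STAT and SOCS proteins. None of the 18 was lower, and Stat5a had -0.045 and Jak3 0.21 on the log2 scale. Sdc1, syndecan-1, which marks plasma cells but also precursors of B cells, rose from 412 and 398 to 748 and 702 (log2 fold change 0.84, adjusted p = 9.27e-04), and all 4 probe sets of the gene were called higher.

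Of 26 transcription factors of the B lineage 1, Irf4, was called (3.85%), near the share over all member genes (1.98% lower and 1.86% higher). Irf4, a factor of light chain activation and of plasma cells, read 1693 and 1493 in WT and 2331 and 2197 in OBF-1-/- cells, a log2 fold change of 0.51 with an adjusted p of 0.0232 that rose to 0.182 without WT replicate 2. A dimmer Irf4 probe set had 0.12 and was not called. Ebf1 (-0.047), Spib (-0.16), Foxo1 (0.085) and Ets1 (0.063) were not called. Outside the list Ets2, a relative of Ets1, fell from 294 and 257 to 169 and 146, and Brwd1, a bromodomain protein of chromatin, from 427 and 393 to 204 and 197. The adjusted p of Ets2 was 0.00131 and that of Brwd1 0.00118 from limma. A further 2 of the 4 Brwd1 probe sets were called in the same direction.

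Cell cycle genes were divided between the D cyclins. Ccnd2, cyclin D2, read 311 and 361 in WT and 128 and 177 in OBF-1-/- cells (log2 fold change -1.16, adjusted p = 0.00314 from limma). Ccnd3, cyclin D3, read 1585 and 1448 against 2525 and 2242, and its adjusted p of 0.00522 came to 0.0635 without WT replicate 2. The CDK inhibitor gene Cdkn1a was higher by 0.45 on the log2 scale (0.241 without OBF-1 replicate 2). None of 36 DNA replication genes was called, and their median was -0.034. Of 29 mitosis genes 28 had a positive log2 fold change, with a median of 0.19 (0.16 without OBF-1 replicate 2), but only Plk1, a mitotic kinase, passed the test, and its adjusted p of 0.0113 came to 0.114 without that array. H1f2, a linker histone, fell from 2305 and 1752 to 669 and 729 (log2 fold change -1.52, adjusted p = 3.16e-04).

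In the list of V(D)J recombination and end joining 2 of 11 genes were lower, Atm and Polm, and none higher, and the median log2 fold change was -0.11. Of 13 p53 targets and genes of the DNA damage response none was lower and 1, Cdkn1a, was higher, with a median of 0.034. Beside both lists stand the shares over all member genes, 1.98% lower and 1.86% higher. Atm, the kinase that signals double-strand breaks such as those of V(D)J recombination, read 154 and 136 in WT and 34.6 and 30.0 in OBF-1-/- cells (log2 fold change -2.17, standard error 0.11, adjusted p = 8.16e-07 from limma). Atm lies 4 places from Pou2af1 in the order of the member genes, and whether the altered locus acts on it was not tested. Genes outside these lists were put with DNA repair and synthesis after their values were seen, 5 lower and 1 higher. Among them Rev1, a polymerase that copies past damage, read 207 and 157 against 103 and 90.9, and Pold4, the smallest subunit of polymerase delta, 665 and 605 against 365 and 394. The calls of Atm, Rev1 and Pold4 held in every fit. Mbd4, a DNA glycosylase, read 623 and 440 against 290 and 267 and was lost without OBF-1 replicate 2 alone (0.0602). Polm, polymerase mu of end joining, had an adjusted p of 0.048 that any left-out array took past the threshold, up to 0.323 without WT replicate 1. Rag2 was not called, with 269 and 288 in WT and 461 and 391 in OBF-1-/- cells (log2 fold change 0.61, adjusted p = 0.0725).

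The 118 called genes that stood in none of the lists were sorted by their known role after their values had been seen, which is a description only. Intracellular traffic and the endoplasmic reticulum held 6 lower and 3 higher genes. Gga2, an adaptor that sorts cargo at the Golgi, read 691 and 566 in WT and 250 and 254 in OBF-1-/- cells (log2 fold change -1.31, adjusted p = 3.73e-05 from limma). Ero1b, an oxidase that forms disulphide bonds in secreted proteins, read 695 and 622 against 361 and 358, and Spg21, an endosomal protein, 620 and 568 against 210 and 230. Cytoskeleton, motor and cilium genes held 7 lower and 5 higher genes. Dynlt3, a dynein light chain, read 621 and 627 against 251 and 272, with its 3 probe sets all called lower, Ift22, a carrier protein of cilia, 401 and 362 against 157 and 147, and the calponin gene Cnn3 1015 and 1006 against 491 and 500. Metabolic enzymes of other kinds held 1 lower and 9 higher genes, and genes of lysosomes and lipid metabolism 5 higher and none lower. Of these higher genes Hacd4, Pip4p2, Eno3 and Car3 were members only through their OBF-1-/- mean. Other lysosomal and lipid genes stood in the lists or under another role, among them Slc15a3, Atp6ap1, Scd1 and Ifi30, which were lower, and Abca1, which was higher. The direction of such a group is therefore no result about its role. No role was given to 17 genes.

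Among genes in the lists with roles in metabolism and transport, Aldh2, the mitochondrial aldehyde dehydrogenase, fell from 930 and 795 to 342 and 381 (log2 fold change -1.25, adjusted p = 5.03e-05 from limma). Slc1a5, the glutamine transporter, fell from 2083 and 1660 to 653 and 577 (log2 fold change -1.60, adjusted p = 1.99e-05). Atp6ap1, an accessory subunit of the proton pump of lysosomes, read 1293 and 1146 against 734 and 749. Of 108 solute carriers 2 were lower and 3 higher (4.63%), near the share over all member genes (1.98% lower and 1.86% higher). One ribosomal protein gene stood apart: Rps25 read 374 and 363 in WT and 88.0 and 127 in OBF-1-/- cells (log2 fold change -1.80, adjusted p = 2.02e-04). Rps25 lies 32 places before Pou2af1 in the order of the member genes. None of the other 42 of its list was called, and their list's median was -0.085, or -0.047 after a second quantile normalization and -0.11 after centring on the array median. Sialyl- and fucosyltransferases, which finish the sugars of surface proteins, split: St3gal1 and St6gal1 were lower and St3gal6 and Fut8 higher, none of which held in every fit. Their highest adjusted p in this order were 0.13 (OBF-1 replicate 2 left out), 0.235 (WT replicate 1), 0.164 (WT replicate 2) and 0.255 (OBF-1 replicate 1).

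Some lower genes are known from quite other tissues, and a few of them lie beside a lower B cell gene. Gh, growth hormone, read 203 and 195 in WT and 97.1 and 89.9 in OBF-1-/- cells (log2 fold change -1.09, adjusted p = 3.38e-04 from limma). All 4 Gh probe sets were called lower, though 3 of them are of a kind that can bind several transcripts. Gh lies next to Cd79b in the gene order. Lynx1, a relative of Ly6d known from the brain, lies next to Ly6d and read 652 and 588 against 411 and 399, with an adjusted p of 0.00598 that came to 0.0779 without WT replicate 1. Prm1, a protamine of sperm, read 211 and 211 against 88.1 and 98.3, with its 3 probe sets, all of a kind that can bind several transcripts, called lower. In all, 17 pairs of called genes stood next to each other among the member genes, and 14 of these pairs had the same sign. The share of same signs among all neighbouring member genes was not computed, nor the number of pairs that position alone would give. The counts are therefore no result about neighbours. Some pairs are of related genes, such as H2-Ab1 with H2-Aa, C1qc with C1qa and Car3 with Car2. The pairs with opposite signs were Chchd10 with Vpreb3, Mdfic with Tes and Slc37a4 with Trappc4. Of these Mdfic (0.221 without OBF-1 replicate 1), Tes (0.0568 without WT replicate 2) and Trappc4 (0.29 without WT replicate 1) did not hold in every fit. Whether neighbours share transcripts or control was not tested.

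The higher genes included proteins of the cell surface, the matrix and the blood. F5, coagulation factor V, read 121 and 107 in WT and 345 and 321 in OBF-1-/- cells (log2 fold change 1.54, adjusted p = 1.94e-05 from limma), with both of its probe sets called, and F13a1, a subunit of factor XIII, 125 and 114 against 199 and 256. Tspan2 and Cd9, tetraspanins that organize other membrane proteins, were higher by 1.25 and 0.75 on the log2 scale. While 1.98% of all member genes were lower and 1.86% higher, 4 of 17 matrix genes were higher and none lower. Besides Mmp11 these were Adamts7 (0.247 without WT replicate 1), Timp2 (0.148 without OBF-1 replicate 2) and Lamc1 (0.197 without OBF-1 replicate 1). The actin regulators Vcl, the gene of vinculin, and Gsn, the gene of gelsolin, rose by 0.82 and 0.85. Ramp1, a receptor accessory protein gene that the paper plots beside Gsn, read 124 and 140 against 215 and 263. Its call did not hold in every fit. Srgap3, a GTPase activator for Rac, read 77.8 and 86.7 against 145 and 158, and Rexo2, a nuclease of mitochondria, 265 and 295 against 494 and 513. Abca1, a cholesterol exporter, read 288 and 286 against 464 and 440, and its 2 dimmer probe sets were not called. Ddc, which makes dopamine and serotonin from their precursors, rose from 156 and 159 to 248 and 240, and Upb1, an enzyme of pyrimidine breakdown, from 59.0 and 66.0 to 119 and 115. Clec2d, a ligand of an inhibitory NK cell receptor, read 283 and 191 against 413 and 547 (0.256 without OBF-1 replicate 2), and Slc40a1, the iron exporter ferroportin, 67.2 and 82.7 against 145 and 177 (0.134 without WT replicate 1).

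Another set of higher genes are markers of other marrow cells. Of 11 erythroid genes and GATA1 partners 4 were higher, Car1, Car2, Klf1 and Fech, and 1, Zfpm1, was lower. Only 1 of the 11 had a negative log2 fold change, and the median was 0.43, or 0.32 without OBF-1 replicate 2. Car2, a carbonic anhydrase, read 427 and 350 in WT and 782 and 1017 in OBF-1-/- cells, and Car1 94.4 and 82.9 against 201 and 294. Both calls held in every fit, while Klf1, the erythroid Kruppel-like factor, came to 0.0732 without WT replicate 1 and Fech, an enzyme of haem synthesis, to 0.275 without OBF-1 replicate 2. Aqp1, the water channel of red cells, read 50.9 and 43.0 against 97.3 and 191 and came to 0.095 without WT replicate 2. With Aqp1, 4 genes outside the lists were put with membrane proteins of erythroid cells after their values were seen, all of them higher. All 4 were members only through their OBF-1-/- mean, as was Car1, so that a call could only be higher. The others were Cldn13 (log2 fold change 0.95), Ermap (0.89) and Tfr2 (0.54), and none of the 4 calls held in every fit. The probe set named Hba-a1, a haemoglobin gene, was near the floor of the arrays, between 18.2 and 25.3. Probe sets with several symbols were left out, and Hbb-b1, Hbb-bs and Hbb-bt had no value. The level of haemoglobin RNA as a whole is therefore not given here. Alas2 and Tfrc had log2 fold changes of 0.29 and 0.37 and were not called. OBF-1 replicate 2 was the higher of the 2 OBF-1-/- arrays in Car1, Car2, Klf1 and Aqp1, and the 15 erythroid list genes on the array summed to 3595 and 3405 in WT and 3703 and 4554 in OBF-1-/- cells.

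All 19 member genes that mark granulocytes and monocytes had a positive log2 fold change, with a median of 0.31 that came to 0.20 without OBF-1 replicate 2, and 4 were called higher. Over all 6064 member genes 3088 had a negative log2 fold change. The 4 markers called higher were Camp, Ngp, Ltf and Lyz2, products of granules and lysosomes, with log2 fold changes of 0.48 to 0.55. None of the 4 calls held without WT replicate 1 (adjusted p of 0.0905 for Camp from limma) or without OBF-1 replicate 2. The 23 list genes on the array summed to 28020 and 28140 in WT, 33930 and 38840 in OBF-1-/-, 31730 and 32440 in Aiolos and 34470 and 35450 in Aiolos/OBF-1 cells. S100a8 and S100a9, subunits of calprotectin, were bright but not called. C1qa, C1qc and Cd5l, genes of macrophages, were higher as well, and C1qa read 70.4 and 75.7 against 114 and 182 (0.159 without WT replicate 1), C1qc came to 0.13 without WT replicate 1 and Cd5l to 0.23 without OBF-1 replicate 2. C1qa, C1qc and Cd5l were members only through their OBF-1-/- mean, so that a call could only be higher. The macrophage marker Adgre1 was below the intensity minimum, at 43.1 to 72.2. Of the T cell list 2 of 16 genes on the array reached the minimum, of the NK cell, dendritic cell and basophil list 2 of 13, of the megakaryocyte list 2 of 9 and of the stroma and endothelium list none of 12, and none was called. The part of such cells in the higher genes was not tested. Cd79a was not lower in OBF-1-/- cells, the T cell list summed to 770 and 824 in WT and 842 and 869 in OBF-1-/- cells, and the NK cell, dendritic cell and basophil list to 686 and 734 against 741 and 820.

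Single genes of other families were called as well, and most of these calls depended on an array. Lower and held in every fit were Slc15a3, a peptide and histidine transporter of lysosomes (log2 fold change -0.90), the deubiquitinase gene Otub2 (-0.96), the interferon-induced Ifi27l2a (-0.75) and Fam117a (-1.13), for which no role is given. Lower but lost in at least 1 fit were Il12a, a chain of interleukin 12 (0.0685 without WT replicate 1), Rgs10, a brake on G protein signals (0.0768 without WT replicate 2), the SLAM family gene Slamf9 (0.27 without WT replicate 1), the ubiquitin ligase gene Syvn1 of the endoplasmic reticulum (0.159 without WT replicate 1) and Scd1, a fatty acid desaturase (0.287 without WT replicate 1). Higher but lost in at least 1 fit were Anxa1, annexin A1 (0.07 without WT replicate 2), Lgals1, galectin 1 (0.117 without WT replicate 1), S1pr4, a receptor for sphingosine 1-phosphate (0.235 without WT replicate 2), Tcf7l2, a factor of the Wnt pathway (0.131 without OBF-1 replicate 2), Inpp4a, a phosphoinositide phosphatase (0.0958 without OBF-1 replicate 2), and Tnfrsf19, a TNF receptor family member (0.11 without WT replicate 2).

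**Figure D4:**
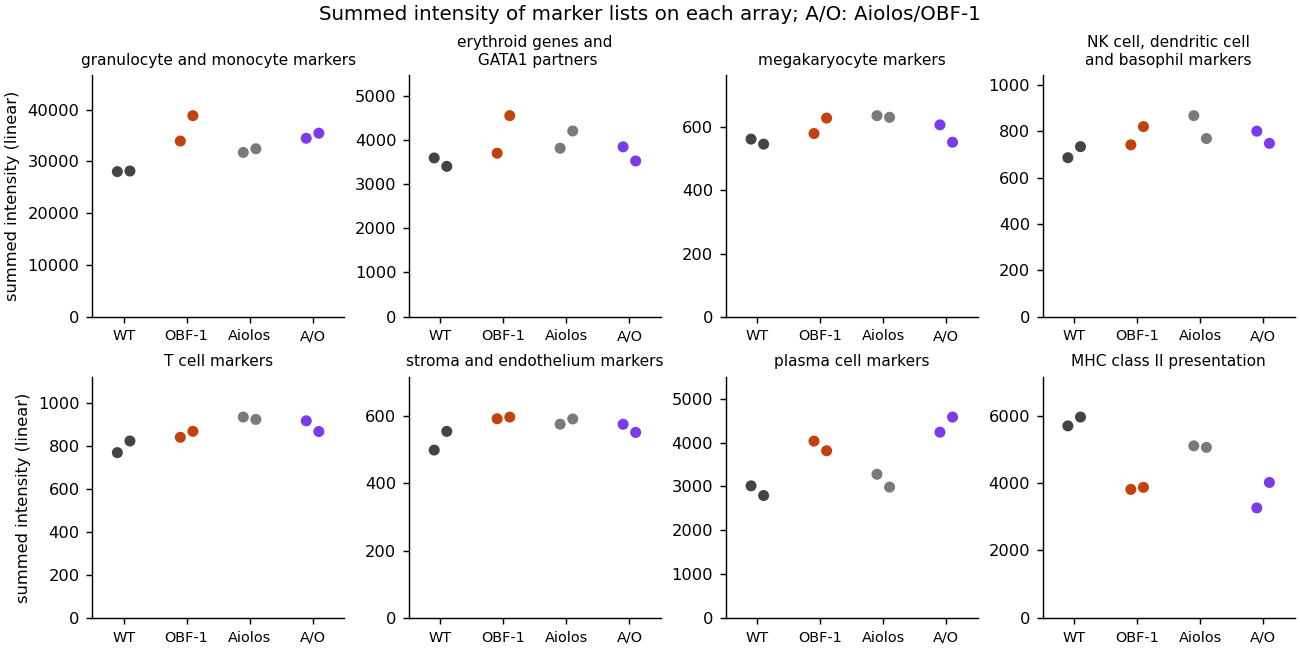
Summed linear intensity of the genes on the array from 8 lists, for each of the 8 arrays; A/O is Aiolos/OBF-1. Granulocyte and monocyte markers are higher on both OBF-1-/- arrays than on both WT arrays, while MHC class II falls from 5695 and 5957 to 3811 and 3873.

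Many gene groups showed no call, where over all 6064 member genes 1.98% were called lower and 1.86% higher. With shares so low, no call in a small group such as the BCL2 family is no result about that group. None was made among 6 members of the BCL2 family, 11 Notch pathway genes, 23 genes of glycolysis and linked pathways, 31 corepressor and chromatin remodelling genes, 45 proteasome subunits, 33 Rab GTPases, 30 deubiquitinases, 94 F-box and RING ubiquitin ligases, 67 translation factors and aminoacyl tRNA synthetases and 23 MAP kinases. Of 80 genes of oxidative phosphorylation 1 was called, Cox6a2, which was higher (0.181 without WT replicate 1). Of 14 heat shock chaperones 12 had a negative log2 fold change, with a median of -0.21, and Hsph1 (0.175 without WT replicate 1) and St13 (0.163 without WT replicate 1) were called lower. Of the called genes 115 belonged to a list.

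The same deletion could be read a second time in cells that also lacked Aiolos, on 4 arrays that share none with the comparison above. These arrays were washed on another station but with the same split, Aiolos on modules 1 and 2 and Aiolos/OBF-1 on 3 and 4, so that module and OBF-1 loss cannot be told apart in either background. There 136 member genes were lower in Aiolos/OBF-1 than in Aiolos cells (2.24%) and 190 were higher (3.13%). Of the 120 genes lower without OBF-1 in the WT background, 115 had the same sign and 85 were called in the same direction (70.8%), and of the 113 higher genes 108 had the same sign and 60 were called (53.1%). Of the member genes not called, 60.0% had the same sign and 2.81% were called in the direction of their sign. Across the 233 called genes the log2 fold changes in the 2 backgrounds correlated with an r of 0.892, a description across genes that are not independent.

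In all, 145 of the 233 genes were called in the same direction in both backgrounds. Vpreb3 fell by 1.72 on the log2 scale without Aiolos, from 6035 and 5798 to 1759 and 1836. Cd74 fell by 0.68, Cd79b by 0.74, Itpr3 by 1.16, Atp2a3 by 1.18, Cd93 by 0.97 and Atm by 1.70, each with an adjusted p under the threshold. Il7r and Irf4 were called higher there too, with log2 fold changes of 0.61 and 0.59, as were Vpreb1 (1.26) and Sdc1 (0.89). Igkv6-14 fell by 2.76. Of the erythroid and granulocyte genes that were higher in the WT background, Car2 was called with 0.65, while Car1 had 0.62, Klf1 0.31, Fech 0.27, Camp 0.11, Ngp 0.17, Ltf 0.28 and Lyz2 0.38, none of them called. H2-Aa had -0.57, Fos -1.91 and Jun -0.93, none of them called, and Ccnd3 had 0.34.

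**Figure D5:**
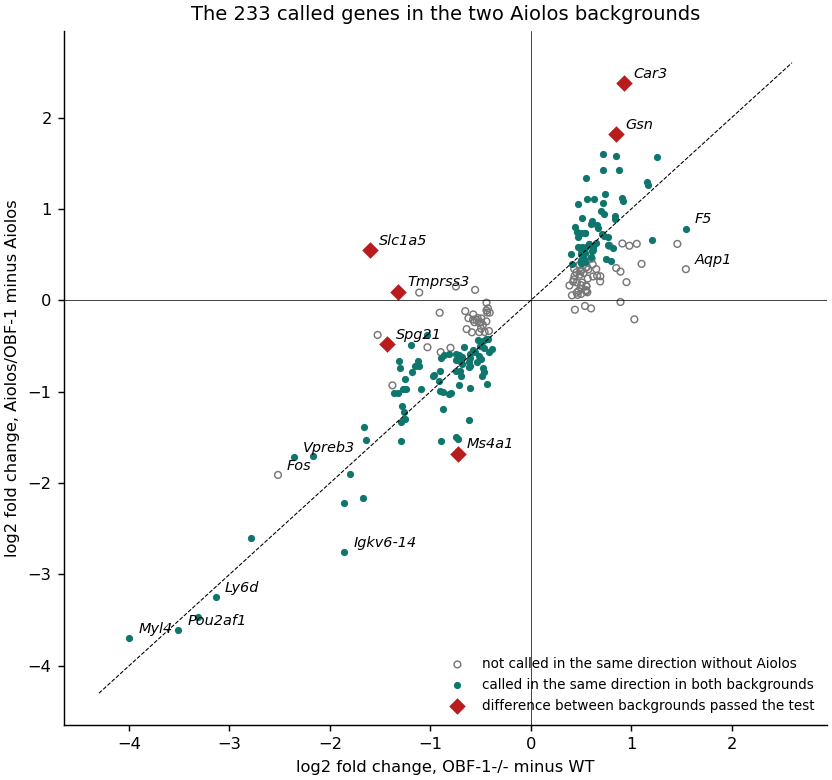
Log2 fold changes of the 233 called genes, OBF-1-/- minus WT on the x axis and Aiolos/OBF-1 minus Aiolos on the y axis, with the line of equal change dashed. Red diamonds mark the 6 of them whose difference between the backgrounds passed the test; Slc1a5 lies at -1.60 and 0.55.

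The difference between the effects was tested itself, and 14 member genes passed (0.231%), 6 of them among the called genes. Slc1a5 fell with the loss of OBF-1 in the WT background but was higher without Aiolos, where it read 986 and 967 in Aiolos and 1327 and 1532 in Aiolos/OBF-1 cells (difference of log2 fold changes 2.14, standard error 0.17, adjusted p = 5.17e-04 from limma). Tmprss3, a serine protease of the membrane, read 337 and 372 in WT and 140 and 143 in OBF-1-/- cells, but 559 and 631 in Aiolos and 580 and 692 in Aiolos/OBF-1 cells, so that its 2 changes differed by 1.42 (adjusted p = 0.00421). Car3, a carbonic anhydrase of muscle and fat, rose in both, by 0.93 and by 2.38 (adjusted p of the difference 0.00421), but it read 47.6 and 60.0 in WT and 55.3 and 59.2 in Aiolos cells and was a member only through its OBF-1-/- mean, and its second, dimmer probe set had a log2 fold change of 0.18 in the WT background and was not called. These 3 differences held whichever array was left out, as did that of Irs1, an insulin receptor substrate that was not called in the WT background but read 385 and 403 in Aiolos and 967 and 1307 in Aiolos/OBF-1 cells. Ms4a1 fell further and Gsn rose further without Aiolos, and Spg21 fell less, with adjusted p of 0.0177, 0.0284 and 0.0259. When 1 array was left out these 3 were lost in 6 or more of the 8 fits, with adjusted p of up to 0.0973, 0.142 and 0.154.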

How the data were processed

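RNA of pre-BII cells was hybridised to Affymetrix MOE430A arrays, 2 for each of 4 genotypes. The authors normalized the arrays together by RMA and deposited linear intensity values for 22690 probe sets, in 1 column for each array. The version of the RMA software was not given in the sources used here. RMA draws the arrays to a common distribution, so a shift of all genes together would not be visible. The 64 control probe sets were left out, log2 of the deposited intensity was taken without a pseudocount, and 1 mean for each genotype was fitted over all 8 arrays with lmFit and eBayes of limma 3.58.1 in R 4.3.3 (4 residual and 7.69 prior degrees of freedom). P-values were adjusted by Benjamini-Hochberg over all 22626 probe sets, and a probe set was called at an adjusted p under 0.05. The steps were tested on simulated data before use.

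Groups were taken from the sample titles. A gene was represented by the brightest of its probe sets that carries exactly 1 symbol, and was a member at a mean intensity of 100 or more in WT or OBF-1-/- cells. Of the probe sets 20380 had 1 symbol, 691 several and 1555 none. The depth of an array has no counts, and the number of arrays limits the precision. Named genes were Pou2af1, the genes the paper names, the 25 largest falls and rises, the called genes of the lists, genes whose OBF-1 effect differed with Aiolos, and up to 3 members of a list without a call, of which the text gives those that bear on a result. Genes were described by 40 curated lists and 46 families taken from gene names. Members and lists were chosen with earlier results of these data known, and the roles of called genes outside the lists were given after their values were seen. Promoters came from the RefSeq table of GRCm38.p6. The alternatives were other arrays, filters, normalizations, pseudocount, moderation, thresholds, probe set choice, a replicate block and leaving out each array.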

Additional observations from a re-analysis of the deposited data

Results flagged for a closer look

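The effect of OBF-1 loss differed between cells with and without Aiolos, by a test of the difference itself (limma, adjusted over all probe sets), for 14 member genes. The values are the log2 effect without Aiolos minus that with Aiolos. Slc1a5 had 2.14, Irs1 1.64, Car3 1.45 and Tmprss3 1.42, and these 4 passed whichever array was left out. Gsn had 0.96, the nuclear matrix protein gene Banp 0.96, Spg21 0.95, AU020206 0.92, Tsc22d1, a leucine zipper factor, 0.79 and Itgav, the integrin alpha V chain, 0.73. Negative differences were found for Ms4a1 (-0.95), the collagen gene Col5a3 (-0.95), the Schlafen gene Slfn2 (-0.93) and Nsg2 (-0.89). Each of the other 10 lost its call in 5 or more of the 8 fits without 1 array. Col5a3 read 1136 and 1134 in WT, 1527 and 1387 in OBF-1-/-, 1144 and 1155 in Aiolos and 770 and 756 in Aiolos/OBF-1 cells. Slfn2 read 859 and 823, 807 and 905, 466 and 539, and 263 and 273 in the same order.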

How the results depend on the processing

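That the 233 called genes kept their sign under the alternatives was largely given in advance. The arrays of the 2 genotypes did not overlap in any of them, and filters, thresholds and moderation leave the fold change as it is. Renewed normalization and added intensity reversed no sign either. Other probe sets of a gene were not part of this check. Counts are given as lower genes, higher genes, genes also called in the same direction without Aiolos, and genes whose effect differed with Aiolos, which were 120, 113, 145 and 14 as reported. Without moderation of the variances they were 4, 0, 4 and 0. With a minimum change of 2-fold they were 40, 10, 23 and 4, and at 3-fold with an unadjusted p 15, 0, 12 and 3. A minimum mean of 200 left 68 higher genes, adding 16 to the intensities left 9 genes that differed with Aiolos, and trended robust moderation gave 22. Leaving out 1 array gave 53 to 116 lower and 29 to 113 higher genes, 73 to 110 also called without Aiolos and 4 to 12 that differed with Aiolos. The lowest counts were reached without WT replicate 1 (53 lower) and WT replicate 2 (29 higher). With the replicate number as a block the counts were 123, 116, 148 and 17. Deviations of same-numbered arrays correlated between genotypes at -0.088 to 0.10, so the numbers were not taken to pair the samples. Fitting each comparison on its own 4 arrays gave 102, 90 and 116, with 54 of the 233 calls lost, and could not give the genes that differed with Aiolos. A minimum of 100 in both genotypes gave 96, 84, 113 and 13. With 2 arrays for each genotype the calls rest on a spread estimated across genes and genotypes, and the 165 genes with a call lost in some fit rest on single arrays more than the 68 do. The cause of these differences was not tested.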

Other observations

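Pou2af1 lies on chromosome 9, and the member genes around it were looked at after the values of Atm and Rps25 had been seen. Of the 50 member genes within 25 places on either side 4 were called, 2 lower and 2 higher (8%), and of the 50 at 26 to 50 places also 2 lower and 2 higher. Of the 100 at 51 to 100 places 2 were called (2%), of the 146 further away 5 (3.42%), and on other chromosomes 217 genes were called of 5717 (3.8%). The median absolute log2 fold change was 0.10 within 25 places and 0.10 on other chromosomes. Changes of at least 2-fold were found in 2 of 100 genes within 50 places and in 47 of 5717 on other chromosomes. Atm stood 4 places after Pou2af1 and Rps25 32 places before it. Whether the altered locus itself acts on its neighbours was not tested, and the Aiolos/OBF-1 mice lack the same gene. No test was made of these shares.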
